A study of Mus musculus with 17 samples.

Results

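The genes described here are 7 of the 45777 in a mouse lung RNA-seq count table: Arg1, Retnla, Mrc1, Cd163, Mgl2, Clec10a and Chil1. They were chosen by name as widely used marks of alternatively activated macrophages, with earlier results of these data known. The shares of them called, set beside those of all genes, are therefore a description. All 7 passed the filter on low counts that kept 22052 genes. The study compared a lower with a higher single dose of focal radiation to the left lung at an early, inflammatory time and a late, fibrotic time. All mice were wild-type C57BL/6 males, 6 weeks old at purchase, and RNA came from lung tissue (from the lesion in irradiated lungs), with 1 library per sample. The part of the control lungs that was used is not given. Radiation and the part of the lung sampled therefore cannot be told apart in any comparison of irradiated with control lung. At 2 weeks there were 3 libraries without radiation (controls), 3 after 65 Gy and 3 after 75 Gy. At 6 weeks there were 3 control libraries, 2 after 65 Gy and 3 after 75 Gy. Libraries are named by the number in their label. The labels do not say that each library came from its own mouse, so the p-values measure the spread between these 17 libraries only.

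Macrophages take up an alternative activation state when interleukin 4 or interleukin 13 binds its receptor and activates the transcription factor STAT6. The state is known from allergic airways, worm infection and tissue repair, and in lung it is discussed in relation to fibrosis. Widely used as its marks are secreted proteins and enzymes (RELM-alpha, arginase 1, chitinase-like proteins) and surface lectins and scavenger receptors (the mannose receptor, galactose-type lectins, CD163). Whether each of these marks follows STAT6 in lung was not tested. None of them is private to macrophages. Airway and alveolar epithelium can make RELM-alpha and Chil1, and some dendritic cells carry Mgl2. The libraries hold all lung cells, so fewer cells of a type and less RNA per cell cannot be told apart in any value given here.

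Each library held between 46764569 and 66797879 counts (median 57608149). Levels are given as CPM, counts divided by the library total after scaling by trimmed mean of M-values (TMM) and brought to a common total. The tissue label matched its markers, with group means of the alveolar type 2 cell gene Sftpc from 10535 to 15449 CPM, and macrophage genes were present in every group (Adgre1, the F4/80 antigen, at 23.5 to 102 CPM). Control library 3127 stood apart from the other 5 controls: 11 of 22052 genes were at least 3 times as high in it as in every other control (0.5 CPM added to both), against 1 to 5 genes for the other control libraries. Clca1, a secreted protein of mucus-producing airway cells, was at 618 CPM in 3127 and at most 3.37 CPM in the other controls. The airway mucin Muc5ac was at 43.0 CPM against at most 5.93. Retnla was itself among those 11 genes, so its tests against the 2-week controls are given with and without this library. Library 3134 of the 75 Gy group at 2 weeks had the highest summed level of classical activation genes in its group (1848 CPM against 898 and 983) and the lowest of alveolar type 2 and airway secretory genes (22474 CPM against 32829 and 42523).

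The 7 genes lie on 6 chromosomes in the GRCm38.p6 assembly. Arg1 is on the minus strand at chr10:24915207-24927470. The others are on the plus strand, with Retnla at chr16:48842609-48844461, Mrc1 at chr2:14229414-14332023, Cd163 at chr6:124304636-124330529 and Chil1 at chr1:134182156-134190031. Mgl2 (chr11:70130125-70137542) and Clec10a (chr11:70166623-70170836) are neighbours and encode related lectins. Their longest transcripts share 91 stretches of 100 bases, which is 5.92% of those in Mgl2 and 4.08% of those in Clec10a. Some of their reads could therefore have been counted for the other gene. Mgl2 was the more abundant (means of 112 against 11.9 CPM after 75 Gy at 6 weeks), so this could weigh more on Clec10a. How many reads were involved was not tested. No other member shared a stretch of 100 bases with any gene.

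Corrected for exon length, the members differed widely in level. Chil1 and Retnla were highest in all 6 groups. In the 6-week controls Chil1 stood at 213 ± 6.32 CPM per kilobase (SD, n = 3) and Retnla at 22.4 ± 1.61. Mrc1 (12.5 ± 1.42) and Mgl2 (7.33 ± 0.931) followed, and Cd163 (1.55 ± 0.293), Clec10a (0.979 ± 0.249) and Arg1 (0.929 ± 0.143) were lowest. The library ranges of Clec10a and Arg1 overlapped in these controls. After 75 Gy at 6 weeks the order was Chil1 (529 ± 66.6) and Retnla (527 ± 187), whose ranges overlapped, then Mgl2 (53.3 ± 9.68) above Mrc1 (38.4 ± 3.72), then Clec10a (4.12 ± 1.03), Arg1 (1.6 ± 0.197) and Cd163 (0.796 ± 0.0778). Cd163 thus moved from the highest of the 3 scarce genes to the lowest. The raw counts behind the scarce genes were 79 to 2827 for Arg1, 112 to 826 for Clec10a and 216 to 560 for Cd163, against at least 32170 for Chil1 in every library.

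**Figure D1:**
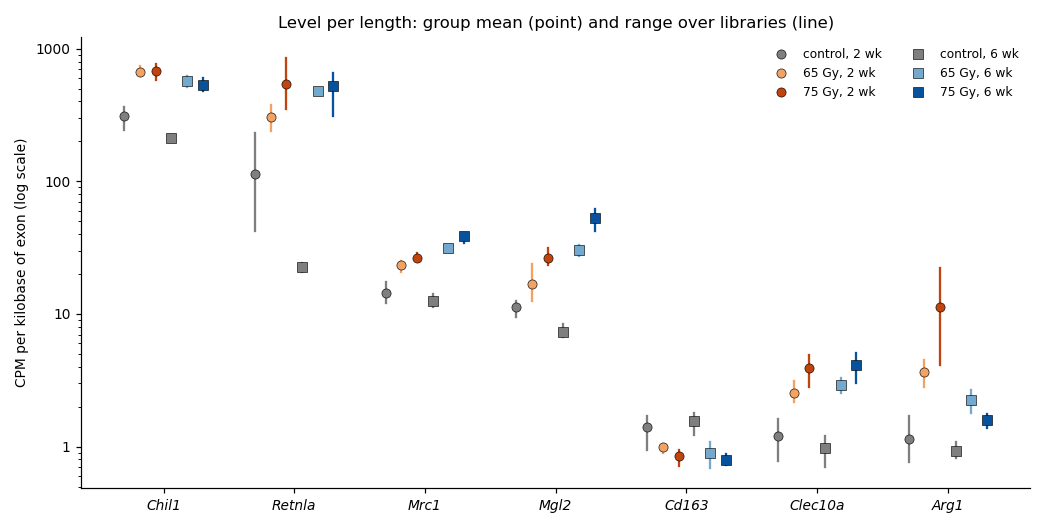
Level of each gene per kilobase of annotated exon (log axis), as the group mean (point) with the range over libraries (line), for the 6 groups. Chil1 and Retnla lie above the other 5 genes in every group, and the means of Mgl2 and Mrc1 cross between the 6-week controls and the 6-week 75 Gy group.

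Irradiated lung carried more of most of these genes than control lung of the same time. A gene was called changed where p from edgeR's quasi-likelihood test, adjusted by Benjamini-Hochberg over all 22052 genes, did not exceed 0.05 and the log2 fold change was at least 1 in size. After 65 Gy at 2 weeks, 3 of the 7 rose (Arg1, Clec10a and Chil1), beside 3.47% of all genes tested. After 75 Gy at 2 weeks, 5 of 7 rose (Arg1, Retnla, Mgl2, Clec10a and Chil1), beside 5.67%. After 65 Gy at 6 weeks, 5 of 7 rose (Retnla, Mrc1, Mgl2, Clec10a and Chil1), beside 4.34%. After 75 Gy at 6 weeks the genes that rose were also Retnla, Mrc1, Mgl2, Clec10a and Chil1, beside 7.28%. None of the 7 was called lower in any of these comparisons, where 0.88%, 2.07%, 0.943% and 3.13% of all genes were. The median log2 fold change of the 7 was 1.07, 1.23, 1.41 and 1.62 in the same order, and that of all genes tested lay between -0.01 and 0.04. Both doses at a time were compared with the same controls, so the comparisons are not independent of each other. Without library 3127, 3129 or 3131, only 1 member was called after 65 Gy at 2 weeks.

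**Figure D2:**
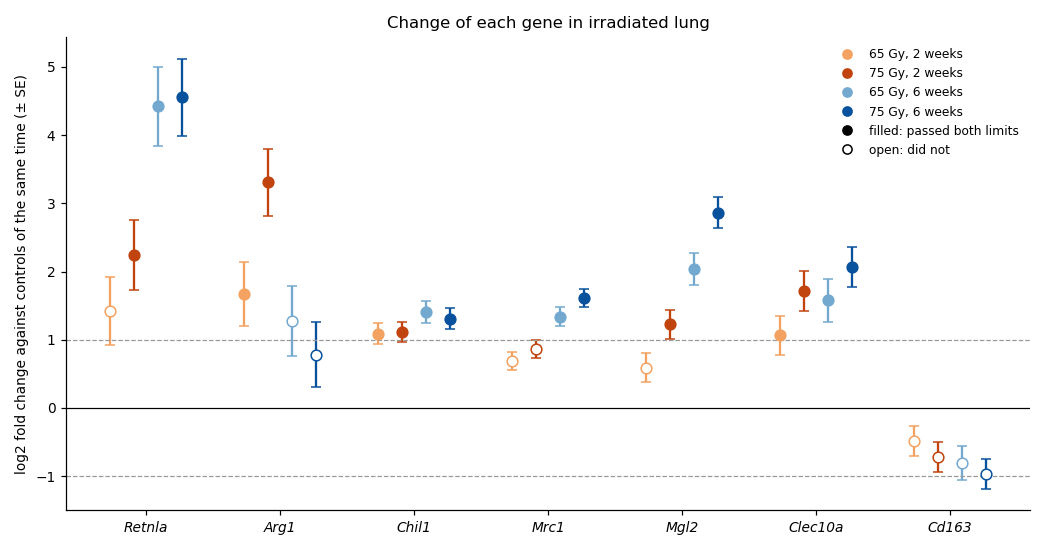
Log2 fold change with its standard error for each gene in the 4 comparisons of irradiated with control lung, filled where both limits of a call were passed (adjusted p at most 0.05 and log2 fold change at least 1 in size, dashed lines). Retnla reached 4.42 and 4.55 at 6 weeks, Arg1 was highest at 3.31 after 75 Gy at 2 weeks, and Cd163 lies below 0 throughout.

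Retnla encodes RELM-alpha, a small secreted protein induced by interleukin 4 and interleukin 13. It is a known STAT6 target, so the 250 bases before its start were searched for the palindrome TTCNNNNGAA, the spacing STAT6 prefers. The window held 1 match, whose first base is at position -145 from the annotated start (chr16:48842464-48842473, plus strand of GRCm38.p6, RefSeq sequence). It is shown in capitals because none of the other members with a window had it, within chr16:48842444-48842493.
Retnla upstream: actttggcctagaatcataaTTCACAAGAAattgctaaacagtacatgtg
A RefSeq window was matched for 5 of the 7 members (Retnla, Chil1, Mrc1, Cd163 and Mgl2). The Mgl2 window (chr11:70130107-70130356) lies mostly inside the gene as placed above. That of Cd163 (chr6:124304401-124304650) ends shortly after the start given above, so these windows are not strictly upstream of those starts. Of 32851 such windows of 250 bases, 5.85% held TTCNNNNGAA. The palindrome with a shorter spacer, TTCNNNGAA (7.02% of windows), and the AP-1 motif TGANTCA (6.75%) were in none of the 5. All these motifs read the same on both strands. A match of letters is a description and shows no binding.

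In control lung at 2 weeks Retnla was at 40.5, 139 and 25.1 CPM (libraries 3126, 3127 and 3128). After 65 Gy it was at 143, 224 and 181 CPM, and after 75 Gy at 247, 210 and 512 CPM. The irradiated libraries lay above the controls, but the lowest of them was close to control library 3127, the library with high Clca1 and Muc5ac. The log2 fold change was 1.42 (SE 0.49, adjusted p = 0.0789) after 65 Gy, which did not pass, and 2.24 (SE 0.51, adjusted p = 0.00551) after 75 Gy, a 4.73-fold rise. Without library 3127 these values were 2.48 (adjusted p = 0.00250) and 3.30 (adjusted p = 0.000298), and both passed.

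At 6 weeks the controls lay close together at 13.3, 12.5 and 14.4 CPM. After 65 Gy Retnla was at 277 and 298 CPM, and after 75 Gy at 187, 367 and 393 CPM. The groups were far apart, with the lowest irradiated library far above the highest control. The log2 fold change was 4.42 (SE 0.58, adjusted p = 0.000237) after 65 Gy and 4.55 (SE 0.56, adjusted p = 5.24e-05) after 75 Gy, rises of 21.4-fold and 23.5-fold and the largest of any member in any comparison. Retnla also varied most between libraries of a group, with a biological coefficient of variation of 0.406 where the median gene had 0.166.

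**Figure D3:**
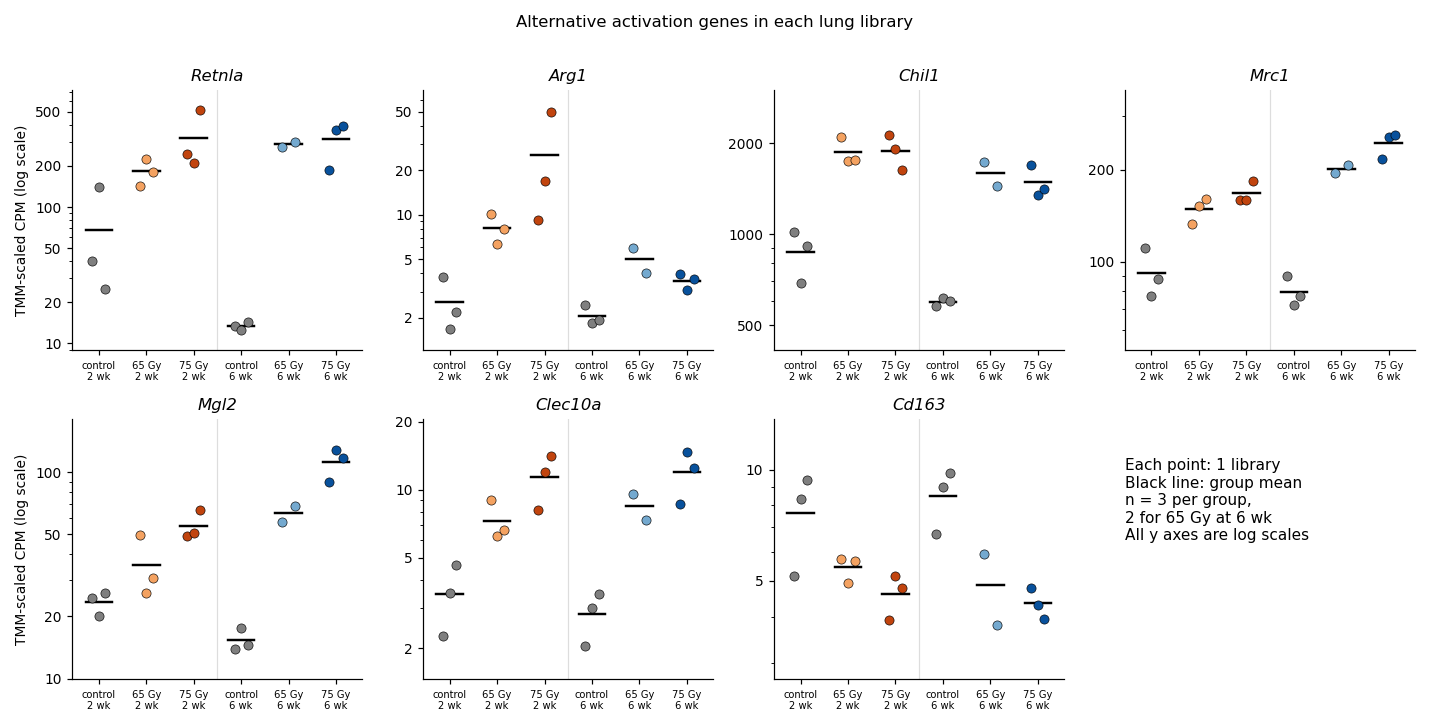
Level of each gene in all 17 libraries (TMM-scaled CPM, log axes), with group means as black lines. Retnla in the 6-week controls sits at 12.5 to 14.4 CPM, below every other library, while control library 3127 of 2 weeks sits at 139 CPM. Arg1 is highest in libraries 3134 and 3133 (75 Gy, 2 weeks), and Cd163 is lower in irradiated than in most control libraries.

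Chil1 encodes BRP-39, the mouse counterpart of YKL-40, a secreted chitinase-like protein without chitinase activity. Controls at 2 weeks had 1019, 689 and 917 CPM, the 65 Gy libraries 2087, 1750 and 1754 CPM and the 75 Gy libraries 2133, 1910 and 1625 CPM. At 6 weeks the controls had 580, 615 and 599 CPM, the 65 Gy libraries 1730 and 1443 CPM and the 75 Gy libraries 1695, 1346 and 1406 CPM. Irradiated and control libraries did not overlap at either time, and the doses overlapped at both. Chil1 rose in all 4 comparisons by similar amounts, with log2 fold changes of 1.09 (SE 0.15, adjusted p = 0.000324) and 1.11 (SE 0.15, adjusted p = 0.000162) at 2 weeks. At 6 weeks they were 1.41 (SE 0.16, adjusted p = 8.13e-05) after 65 Gy and 1.31 (SE 0.15, adjusted p = 2.84e-05) after 75 Gy. Without control library 3127 the 2-week values were 0.95 and 0.96, just under the limit on size, with adjusted p of 0.00210 and 0.00103.

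Arg1 encodes arginase 1, which turns arginine into ornithine and urea and so competes with nitric oxide synthase for its substrate. Controls at 2 weeks had 3.78, 1.69 and 2.17 CPM, the 65 Gy libraries 10.1, 6.28 and 7.98 CPM, and the 75 Gy libraries 9.14, 16.8 and 49.7 CPM. All irradiated libraries lay above the controls, and library 3134 (49.7 CPM) lay well above the rest of its group. Arg1 rose after 65 Gy (log2 fold change 1.67, SE 0.47, adjusted p = 0.0345) and after 75 Gy (3.31, SE 0.49, adjusted p = 0.000358), by 3.18-fold and 9.88-fold. Without library 3134 the 75 Gy value was 2.35 (adjusted p = 0.000253). The 65 Gy call did not hold without 3127, 3128, 3129 or 3131, with values from 1.45 to 1.68 and adjusted p from 0.0757 to 0.121. With 3127 and 3134 both left out it held (1.45, adjusted p = 0.00814).

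At 6 weeks Arg1 was the only secreted or enzyme member that was not called. Controls had 2.43, 1.84 and 1.94 CPM, the 65 Gy libraries 5.99 and 4.01 CPM and the 75 Gy libraries 3.94, 3.08 and 3.67 CPM. The irradiated libraries still lay above every control, by a smaller margin than at 2 weeks. The log2 fold change was 1.27 (SE 0.51, adjusted p = 0.111) after 65 Gy and 0.78 (SE 0.47, adjusted p = 0.213) after 75 Gy. The 65 Gy value passed without library 3132 (adjusted p = 0.0410) or 3134 (adjusted p = 0.0139), which are libraries of another group that enter the shared estimate of spread.

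Mrc1 encodes the mannose receptor CD206, an endocytic lectin of tissue macrophages. Controls had 111, 77.1 and 87.6 CPM at 2 weeks and 89.7, 72.0 and 77.5 CPM at 6 weeks. After 65 Gy the values were 133, 153 and 161 CPM at 2 weeks and 195 and 208 CPM at 6 weeks. After 75 Gy they were 160, 160 and 184 CPM at 2 weeks and 217, 256 and 260 CPM at 6 weeks. The groups did not overlap with their controls, and Mrc1 had the smallest spread between libraries of any member (biological coefficient of variation 0.120). At 2 weeks the adjusted p passed and the limit on size did not, with log2 fold changes of 0.69 (SE 0.13, adjusted p = 0.00359) and 0.87 (SE 0.13, adjusted p = 0.000419). Without control library 3126 the 75 Gy value was 1.04 and passed both. At 6 weeks Mrc1 rose, by 1.34 (SE 0.14, adjusted p = 4.29e-05) after 65 Gy and by 1.62 (SE 0.13, adjusted p = 1.98e-06) after 75 Gy on the log2 scale.

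Mgl2 encodes CD301b, a galactose-type lectin of macrophages and of a subset of dendritic cells. Controls had 24.5, 20.0 and 26.1 CPM at 2 weeks and 13.9, 17.6 and 14.6 CPM at 6 weeks. After 65 Gy the values were 49.7, 26 and 30.7 CPM at 2 weeks, overlapping with the controls, and 57.6 and 68.8 CPM at 6 weeks. After 75 Gy they were 49.2, 50.5 and 65.6 CPM at 2 weeks and 89.1, 129 and 117 CPM at 6 weeks, above every control and, at 6 weeks, above every other library in the study. The change after 65 Gy at 2 weeks did not pass (log2 fold change 0.59, SE 0.21, adjusted p = 0.0872). Mgl2 rose 2.34-fold after 75 Gy at 2 weeks (1.23, SE 0.21, adjusted p = 0.00104). At 6 weeks it rose 4.12-fold after 65 Gy (2.04, SE 0.23, adjusted p = 7.27e-05) and 7.27-fold after 75 Gy (2.86, SE 0.22, adjusted p = 1.12e-06). With 3127 and 3134 both left out, the 75 Gy value at 2 weeks was 0.98, just under the limit on size (adjusted p = 0.0235).

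Clec10a encodes CD301a, the closely related lectin next to Mgl2. Reads of the more abundant Mgl2 from the stretches they share could be part of its counts, which was not tested. Controls had 2.27, 3.51 and 4.65 CPM at 2 weeks and 2.04, 3.01 and 3.46 CPM at 6 weeks. After 65 Gy the values were 8.99, 6.25 and 6.63 CPM at 2 weeks and 9.61 and 7.32 CPM at 6 weeks, and after 75 Gy 8.16, 12 and 14.1 CPM and 8.69, 14.6 and 12.5 CPM. No irradiated library overlapped with the controls of its time. Clec10a rose in all 4 comparisons. At 2 weeks its log2 fold change was 1.07 (SE 0.29, adjusted p = 0.0278) after 65 Gy and 1.71 (SE 0.29, adjusted p = 0.000854) after 75 Gy. At 6 weeks it was 1.58 (SE 0.31, adjusted p = 0.00446) after 65 Gy and 2.07 (SE 0.29, adjusted p = 0.000136) after 75 Gy. The 65 Gy call at 2 weeks did not hold without 3126, 3127, 3129 or 3131 (0.84 to 1.13, adjusted p from 0.0542 to 0.117), nor that at 6 weeks without 3138 (1.38, adjusted p = 0.0552).

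Cd163 encodes the scavenger receptor for complexes of haemoglobin and haptoglobin, and it was the only member below its controls. Controls had 5.16, 8.31 and 9.36 CPM at 2 weeks and 6.68, 8.95 and 9.78 CPM at 6 weeks. After 65 Gy the values were 5.73, 4.92 and 5.66 CPM at 2 weeks and 5.92 and 3.79 CPM at 6 weeks. After 75 Gy they were 3.90, 5.14 and 4.78 CPM at 2 weeks and 4.79, 4.30 and 3.94 CPM at 6 weeks. The 65 Gy libraries of 2 weeks overlapped with their controls and the other 3 irradiated groups did not. The log2 fold changes were -0.49 (SE 0.22, adjusted p = 0.177) and -0.72 (SE 0.22, adjusted p = 0.0282) at 2 weeks, and -0.80 (SE 0.25, adjusted p = 0.0434) and -0.96 (SE 0.22, adjusted p = 0.00379) at 6 weeks. The adjusted p passed in the last 3, and the size stayed under the limit in all 4. Without a single library the 6-week values passed both limits: -1.15 without 3138 after 65 Gy (adjusted p = 0.0498), and -1.11 without 3135 or -1.04 without 3141 after 75 Gy.

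The doses were compared directly at each time. At 2 weeks the 75 Gy libraries had higher means for Arg1 (25.2 ± 21.6 against 8.10 ± 1.89 CPM, SD, n = 3 each), Mgl2 (55.1 ± 9.11 against 35.5 ± 12.5) and Clec10a (11.4 ± 3.03 against 7.29 ± 1.49), and nearly the same mean for Chil1 (1889 ± 254 against 1864 ± 194). At 6 weeks the mean of Mgl2 was 112 ± 20.3 CPM after 75 Gy (n = 3) and 63.2 ± 7.92 after 65 Gy (n = 2), and the libraries did not overlap. Those of Mrc1 did not overlap either, and were higher after 75 Gy (217 to 260 against 195 to 208 CPM). Arg1 also had no overlap but was lower after 75 Gy (3.08 to 3.94 against 4.01 to 5.99 CPM). The share of all genes without overlap was not counted. None of the 7 was called by edgeR's quasi-likelihood test at either time, where 0% of all genes tested were called, and none by DESeq2 or edgeR's exact test. At an unadjusted p under 0.05 there were 3 members at 2 weeks (Arg1, log2 difference 1.64, SE 0.45; Mgl2, 0.63, SE 0.21; Clec10a, 0.65, SE 0.28) and 1 at 6 weeks (Mgl2, 0.82, SE 0.24). Over all genes, 1570 and 1431 had an unadjusted p under 0.05, DESeq2 called 7 and 14, and the exact test called 6 and 11. Without library 3134 the Arg1 difference at 2 weeks was 0.68.

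Time was compared through the change against the controls of the same time. The response of Mgl2 to 75 Gy was larger at 6 weeks than at 2 weeks, by 1.64 on the log2 scale (SE 0.30, adjusted p = 0.0317), beside 0.254% of all genes called for this difference. It was the only member called. For Arg1 the difference was -2.52 (SE 0.67, adjusted p = 0.125), and -1.56 without library 3134. For Retnla it was 2.31 (SE 0.70, adjusted p = 0.163), and 1.26 without control library 3127. For Mrc1 it was 0.75 (SE 0.18, adjusted p = 0.112). At an unadjusted p under 0.05 there were 4 members and 3543 of 22052 genes. For 65 Gy no member was called, beside 0.0136% of all genes. Mgl2 differed there by 1.45 (SE 0.31, adjusted p = 0.187) and Retnla by 3.0 (SE 0.73, adjusted p = 0.308), or 1.94 without 3127. At an unadjusted p under 0.05 there were 3 members and 1908 of 22052 genes. The Mgl2 call for 75 Gy did not hold without 3126, 3128, 3133, 3135, 3136, 3137, 3142 or 3143 (1.53 to 1.74, adjusted p from 0.0567 to 0.101). DESeq2 called Mgl2 in both (1.46 for 65 Gy, adjusted p = 0.00498) and also Arg1 for 75 Gy (-2.52, adjusted p = 0.00621).

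The controls themselves differed between times in 1 member. Retnla fell by 2.34 on the log2 scale from 2 to 6 weeks (SE 0.52, adjusted p = 0.0348), beside 0.576% of all genes called in either direction. Without library 3127 the difference was -1.29 (adjusted p = 0.0989), and the call was also lost without 3131, 3135, 3136 or 3137 (adjusted p from 0.0520 to 0.132). Chil1 (-0.55, SE 0.15, adjusted p = 0.0817) and Mgl2 (-0.62, SE 0.21, adjusted p = 0.176) were lower in every 6-week than in every 2-week control and did not pass.

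The inducing cytokines were scarce. Il13 had counts in 3 of 17 libraries only: 7 in 3129 (65 Gy, 2 weeks), 25 in 3134 (75 Gy, 2 weeks) and 9 in 3138 (65 Gy, 6 weeks). Those counts correspond to 0.113, 0.440 and 0.148 CPM, and with no counts at all in the other 14 libraries Il13 was not tested. Library 3134, with the most Il13, was also the highest in Arg1 and Retnla. Libraries 3129 and 3138 had the least Retnla of their groups (143 and 277 CPM) and the most Arg1 (10.1 and 5.99 CPM). Control library 3127, with high Retnla, had no Il13 count. A link between Il13 and the members was not tested. Il4 had 0 to 22 counts and was not called (log2 fold changes from -2.05 to 0.03, adjusted p of at least 0.104). The receptor chain Il4ra (139 to 209 CPM as group means) changed by -0.06 to 0.14, and Stat6 (164 to 190 CPM) by -0.19 to -0.09, and neither passed. Il13ra1, the other chain of the receptor, had log2 fold changes of 0.31, 0.50, 0.51 and 0.74, under the limit on size.

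Among 19 tested genes for type 2 ligands, receptors and signalling, 0, 2, 1 and 3 rose and 0, 1, 1 and 1 fell (65 and 75 Gy at 2 weeks, then 65 and 75 Gy at 6 weeks, the order used for every list). Il33, an alarmin of epithelium and stroma, rose at 6 weeks (1.22 and 1.37, adjusted p = 0.000961 and 6.91e-05). Its receptor Il1rl1 rose after 75 Gy at 6 weeks (1.71, adjusted p = 0.000334). Socs1, an inhibitor of cytokine signalling, rose after 75 Gy at 2 weeks (1.87, adjusted p = 0.00560), or by 1.07 without library 3134 (adjusted p = 0.0323). Klf4, a transcription factor that takes part in alternative activation and is also abundant in other lung cells, fell after 75 Gy at 2 weeks (-1.48, adjusted p = 3.40e-06) and in both doses at 6 weeks (-1.17 and -1.14).

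Of 25 other genes known as alternative activation targets, 10, 12, 13 and 16 rose and 2, 1, 0 and 0 fell, with median log2 fold changes of 0.93, 1.56, 1.29 and 1.81. The macrophage elastase Mmp12 rose most, by 5.70 after 75 Gy at 6 weeks (SE 0.37, adjusted p = 2.16e-07), from 4.96 ± 1.29 to 259 ± 20.0 CPM. The lipid receptor Trem2 (3.73 to 4.71), the scavenger receptor Msr1 (3.19 to 4.05) and the lectin Clec4n (2.25 to 3.43) rose in all 4 comparisons. Chil4, a chitinase-like gene beside Chil3, fell at 2 weeks (-1.99 and -1.62, adjusted p = 0.0336 and 0.0456) and rose at 6 weeks (2.20 and 1.95, adjusted p = 0.0249 and 0.0142). Control library 3127 held 39.7 CPM of Chil4 where the other 2-week controls had 11.4 and 3.64 CPM. Without 3127 the 2-week values of Chil4 were -0.71 and -0.34 and were not called, and 6 of the 25 genes rose after 65 Gy at 2 weeks in place of 10. The median of the 25 was then 0.80 in place of 0.93. With 3134 also left out, 10 of the 25 rose after 65 Gy at 2 weeks, and Chil4 was still not called.

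Classical activation is the state driven by interferon gamma and bacterial products. Of 24 of its genes, 10, 14, 8 and 10 rose and none fell by the quasi-likelihood test, with medians of 0.87, 1.28, 0.70 and 0.73. Without library 3134, 11 rose and 1 fell after 75 Gy at 2 weeks, with a median of 0.72. The chemokines Cxcl9 (5.30 to 6.63) and Cxcl10 (3.54 to 5.11) rose in all 4, as did the cytokine Il6 (2.11 to 3.70). Acod1, which makes itaconate, rose at 2 weeks (2.90 and 4.15, adjusted p = 0.0350 and 0.00308) and was at -0.03 and -0.14 at 6 weeks. Arg1 was not called at 6 weeks either, but its irradiated libraries still lay above every control (1.27 and 0.78). After 75 Gy at 2 weeks Acod1 was at 4.20, 4.73 and 63.5 CPM, and without the last of these libraries, 3134, the value was 1.72 (adjusted p = 0.00583). The 65 Gy value was not called without 3127 (3.06, adjusted p = 0.0853), and was called with 3127 and 3134 both left out (3.06, adjusted p = 0.000359). Nos2, the nitric oxide synthase that shares the substrate of arginase, had log2 fold changes of 0.63 to 0.95, under the limit on size.

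Partners of single members were counted in the same way. Of 14 genes of arginine and polyamine metabolism, 1, 2, 0 and 0 rose. They were Ass1, which makes argininosuccinate on the way to arginine (1.12 and 1.65 at 2 weeks), and the arginine transporter Slc7a2 (1.07 after 75 Gy at 2 weeks). After 75 Gy at 2 weeks Ass1 was at 30.0, 32.7 and 93.7 CPM and Slc7a2 at 80.0, 89.4 and 165 CPM, the highest in library 3134 for both. Without 3134 the values were 0.92 for Ass1 and 0.67 for Slc7a2, under the limit on size. Ass1 after 65 Gy was not called without 3127 (1.22, adjusted p = 0.0602), and was called with 3127 and 3134 both left out (1.22, adjusted p = 2.51e-05). The second arginase, Arg2, had log2 fold changes of 0.03 to 0.68 and was not called. Of 9 genes for haemoglobin uptake and iron, 2, 3, 3 and 4 rose and none fell. Haem oxygenase, Hmox1, rose in all 4 (1.22 to 2.16) and the ferritin light chain Ftl1 also (1.06 to 1.39), while Cd163 lay below its controls. Of 9 genes of the chitinase family with Chil1 receptors, 1, 3, 4 and 5 rose and 1, 2, 0 and 2 fell. Chil3 was at -0.21 and 0.02 at 2 weeks and rose at 6 weeks (2.11 and 1.75, adjusted p = 0.00133 and 0.000849). Of 3 tested relatives and partners of Retnla, Retnlg, a neutrophil product, fell at 2 weeks (-1.78 at both doses, adjusted p = 0.0167 and 0.00859), and none rose. Its 65 Gy value was not called without 3127 (-1.62, adjusted p = 0.0572), and was called with 3127 and 3134 both left out (-1.62, adjusted p = 0.0291).

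**Figure D4:**
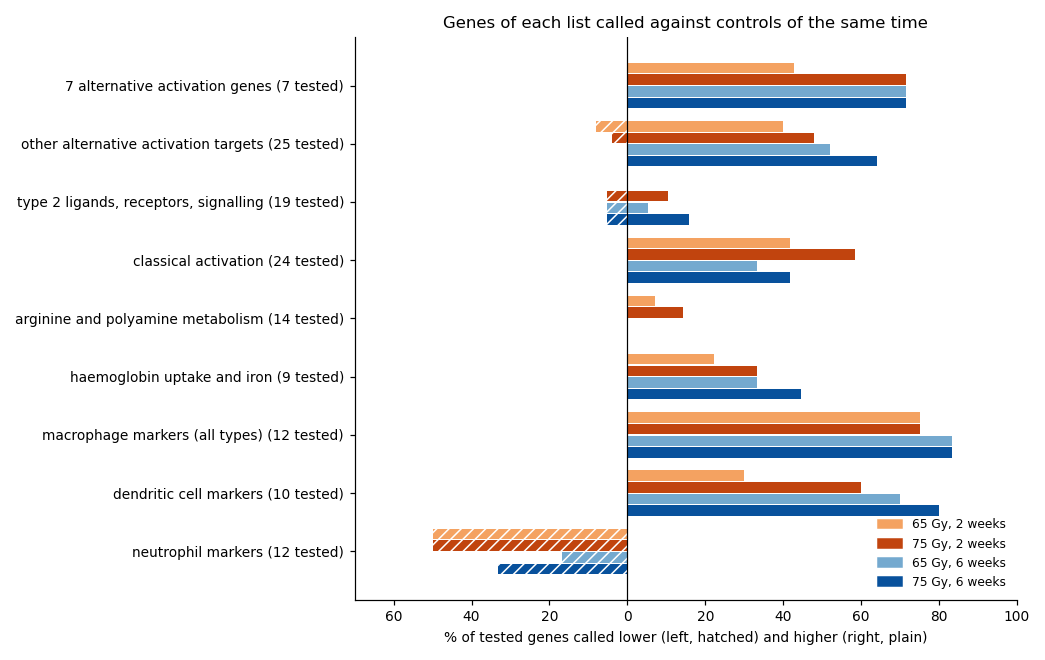
Share of the tested genes of each list called higher (right, plain bars) or lower (left, hatched bars) in the 4 comparisons with the controls of the same time. Genes of alternative and of classical activation, macrophage markers and dendritic cell markers were called higher, neutrophil markers were called lower, and few genes of type 2 signalling or arginine metabolism were called.

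Macrophage markers rose beside the members. Of 12 markers of macrophages of any type, 9, 9, 10 and 10 rose and none fell, with medians of 1.82, 2.32, 1.88 and 2.1, and all 12 were detected in every group. Their summed level was dominated by Lyz2, a lysozyme gene that alveolar type 2 cells of mice also express, which made up 81.4% to 95.8% of the sum. The sum of the other 11 was 430 to 465 CPM in 2-week controls, 1113 to 1345 CPM after 65 Gy and 1078 to 2717 CPM after 75 Gy at 2 weeks. At 6 weeks it was 408 to 427 CPM in controls, 1193 to 1196 CPM after 65 Gy and 1301 to 1523 CPM after 75 Gy. Of 10 dendritic cell markers, 3, 6, 7 and 8 rose, among them Xcr1 in all 4 (1.20 to 1.94) and Cd209a at 6 weeks (1.23 and 2.31). The sum of those 10 was 159 to 222 CPM in the controls and 296 to 602 CPM in irradiated lung. Without library 3134, 3 of them rose after 75 Gy at 2 weeks, with a median of 0.93 in place of 1.25. Of 12 neutrophil markers none rose and 6, 6, 2 and 4 fell, and 3 fell after 65 Gy at 2 weeks without 3127. With 3127 and 3134 both left out, 6 fell after 65 Gy and 2 after 75 Gy at 2 weeks. The neutrophil medians changed little, from -2.06 and -2.02 with all libraries to -2.02 and -1.85 with both left out. The part of these cell types in the members' changes was not tested.

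Set against the 11 macrophage markers (chosen after Lyz2 was seen to dominate the sum), the members separated. Retnla was at 3.21% ± 0.307 of that sum in 6-week controls (SD, n = 3), 24.1% ± 1.33 after 65 Gy (n = 2) and 21.8% ± 6.43 after 75 Gy (n = 3), with no overlap. At 2 weeks it was at 5.41% to 32.4% in controls and 10.6% to 22.9% in irradiated lung, and the overlap came from control library 3127 (32.4%), since the other 2 controls (9.17% and 5.41%) lay below every irradiated library. Mgl2 was lower relative to the markers in irradiated lung at 2 weeks (2.90% ± 0.709 and 3.51% ± 1.08 against 5.27% ± 0.536) and higher at 6 weeks (5.29% ± 0.673 and 7.79% ± 0.995 against 3.66% ± 0.422). Arg1 was at 1.29% ± 0.499 after 75 Gy at 2 weeks against 0.572% ± 0.247 in controls, with a small overlap, and at 0.252% ± 0.0464 after 75 Gy at 6 weeks against 0.493% ± 0.0736. Mrc1 was at 12.5% ± 2.30 and 11% ± 4.05 at 2 weeks, below all controls (20.7% ± 3.94). It was at 16.9% ± 0.761 and 17.1% ± 0.451 at 6 weeks, inside the control range of 16.9% to 21.2% except for libraries 3138 (16.3%) and 3141 (16.7%), just below it. Cd163 was at 0.453% and 0.300% at 2 weeks against 1.70% ± 0.468 in controls and at 0.406% and 0.308% at 6 weeks against 2.02% ± 0.414, below every control at both times. Chil1 was at 155% ± 2.62 and 131% ± 69.1 at 2 weeks against 196% ± 35.2 in controls. At 6 weeks it was at 133% ± 16.7 and 105% ± 21.9 against 143% ± 5.24. It overlapped with controls after 75 Gy at 2 weeks and 65 Gy at 6 weeks. Clec10a overlapped with its controls throughout (0.601% and 0.708% against 0.778% at 2 weeks, 0.709% and 0.831% against 0.678% at 6 weeks). These shares were not tested. With Lyz2 in the sum the 2-week shares of Mgl2 were 0.384% and 0.412% against 0.340% in controls, so their direction at 2 weeks depended on that gene. For Mrc1 they were 1.6% and 1.26% against 1.30%, so the 65 Gy direction turned and the 75 Gy range lay within that of the controls. The 2-week means of Chil1 (20.1% and 14.3% against 12.3%) and Clec10a (0.0787% and 0.0857% against 0.0535%) also turned, to above their controls. So did the mean of Chil1 after 65 Gy at 6 weeks (13.2% against 12.8%). Cd163 after 65 Gy at 2 weeks (0.0510% to 0.0637%) then overlapped with its controls (0.0493% to 0.165%). In the other irradiated groups Cd163 stayed below every control. Arg1 at 2 weeks then lay above every control, at 0.0651% or more against at most 0.0361%.

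**Figure D5:**
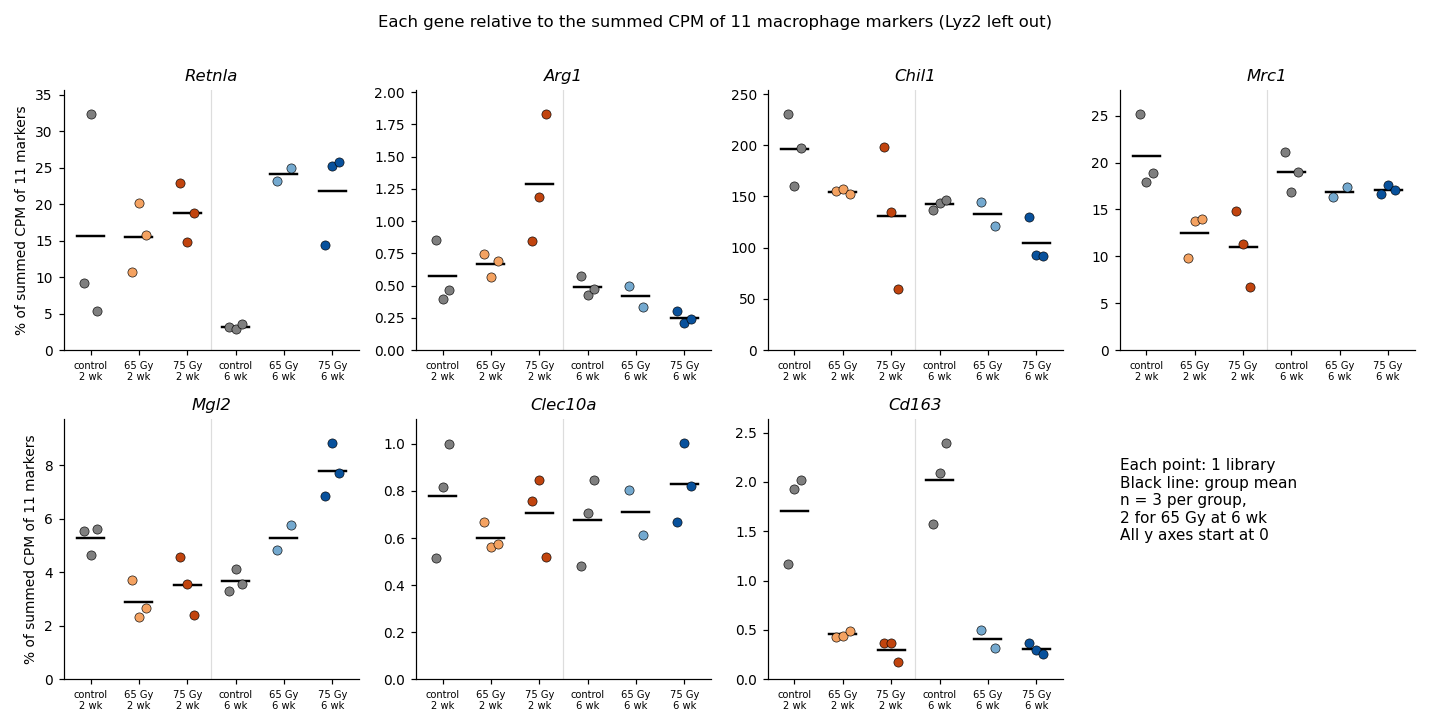
Level of each gene as a percentage of the summed CPM of 11 macrophage markers, per library, with group means as black lines and linear axes from 0. Retnla in the 6-week controls (2.93% to 3.54%) lies below all other libraries, Cd163 in irradiated lung (0.176% to 0.495%) lies below all controls, and Mrc1 at 6 weeks is near its controls.

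The genes whose levels followed each member most closely over the 17 libraries were taken from 15969 genes with a mean of at least 1 CPM, by Pearson's r of log2 CPM. The libraries share 6 groups and the contrast of irradiated with control lung, so a high r describes a shared pattern over groups and carries no test. Mrc1 was followed most closely by Spp1, which encodes the matrix protein osteopontin (r = 0.983), then by Atp6v0d2, a proton pump subunit (0.976), and Mt2, a metallothionein (0.975). Mgl2 was followed by Clu (clusterin, 0.966), St3gal4 (0.954) and Atox1 (0.951). Clec10a was followed by Gpr85 (0.965), the dendritic cell chemokine receptor Xcr1 (0.963) and Sfrp1 (0.957). Sbno2 (0.955) and Cln8 (0.953) were among the 3 genes closest to Arg1, and Retnla was followed by the metalloproteinase Mmp10 (0.955), Bcl2l14 (0.952) and Ccdc25 (0.939). Chil1 was followed by Lrg1 (0.969), Col22a1 (0.965) and Lcn2 (0.965). Cd163 had the lowest leading value, with Rhpn2 (0.927), Nhsl1 (0.926) and Sppl3 (0.926). No member was among the closest 3 of another. By Spearman's rank correlation the same 3 genes led for Mrc1, and the leading 3 changed in part or in full for the others.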

How the data were processed

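RNA-seq was done on mouse lung in 17 libraries of 6 groups, which were taken from the labels. The libraries were made with a stranded kit. The authors trimmed reads (Trimmomatic), mapped them with HISAT2 on the GRCm38.p6 build, estimated expression with StringTie, and deposited a table of raw counts per gene. How StringTie output became counts, and whether strand was used, is not given in the sources used here.

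Counts were filtered with filterByExpr (minimum count 10, minimum total 15), scaled by TMM and fitted for all 17 libraries in 1 model with edgeR 4.0.16 in R 4.3.3 (glmQLFit and glmQLFTest, 1 coefficient per group). The p-values were adjusted by Benjamini-Hochberg over 22052 genes. The standard error is the size of the log2 fold change divided by the root of the F statistic. The fits were tested on simulated data. With 46764569 to 66797879 counts per library, the spread between 2 or 3 libraries limits the precision for all but the scarcest genes.

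The members and all gene lists were chosen with earlier results of these data known. Named genes were the members with their 3 closest genes, defining markers of cell types, Il4, Il13, Il4ra, Il13ra1 and Stat6, and up to 4 genes per list. Those 4 were called in at least 1 comparison with controls, had a mean of at least 1 CPM and had the largest changes. A gene among those closest to Arg1 is not reported here. Arg2, Nos2, Lyve1, the genes high in library 3127 and the sum of 11 macrophage markers were chosen after their values were seen. Alternatives were other filters and scalings (RLE, upper quartile), edgeR's exact test, DESeq2 1.42.0, fits of the compared groups only, adjusted p alone, each library left out and, added after the data were seen, 3127 and 3134 left out together, and the list genes at 2 weeks without either. Upstream sequence is from the RefSeq table of GRCm38.p6, matched by symbol for 5 of 7 members, and exon lengths are from GENCODE vM21.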

Additional observations from a re-analysis of the deposited data

Results flagged for a closer look

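The response of Mgl2 to 75 Gy differed between times. Its log2 fold change against the controls of the same time was 1.64 higher at 6 weeks than at 2 weeks (SE 0.30, adjusted p = 0.0317, edgeR's quasi-likelihood interaction test). The call was lost when any 1 of 8 libraries was left out (adjusted p from 0.0567 to 0.101). All 3 libraries of 75 Gy at 6 weeks (89.1 to 129 CPM) were above all 3 of 2 weeks (49.2 to 65.6 CPM), and all 3 controls of 6 weeks (13.9 to 17.6 CPM) were below all 3 of 2 weeks (20.0 to 26.1 CPM). The sum of the dendritic cell markers was 298 to 602 CPM after 75 Gy at 2 weeks and 425 to 453 CPM at 6 weeks, and its part in the difference was not tested.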

How the results depend on the processing

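Over the alternatives and left-out libraries, 1624 member values were recomputed. Of these, 1568 kept their direction and their side of the limits, 28 lost a call, 20 gained one and 8 changed sign, all with 1 library left out and none of them called. With DESeq2, 1 member was called for the time difference of the 65 Gy response and 2 for that of the 75 Gy response. With only the compared groups in the fit, 0 members were called between the controls, Retnla after 75 Gy at 2 weeks was not called (2.24, adjusted p = 0.0825) and Arg1 after 65 Gy at 6 weeks was (1.30, adjusted p = 0.00657). With 1 library left out, 1 to 4 members were called after 65 Gy at 2 weeks, 0 to 1 between the controls and 0 to 2 for the time difference of the 75 Gy response. Without 3132 the second was Arg1 (-2.90, adjusted p = 0.0372). The values that changed sign were differences between doses or between controls. With 1 library left out, the dose difference ran from -0.0782 to 0.12 for Chil1 at 2 weeks, and at 6 weeks from -0.0520 to 0.38 for Retnla, -0.46 to 0.19 for Cd163 and -0.24 to 0.0267 for Chil1. The difference between the controls ran from -0.52 to 0.10 for Arg1 and -0.0629 to 0.33 for Cd163. Over all genes, DESeq2 called 78 and 301 for the time differences of 65 and 75 Gy, where the quasi-likelihood test called 3 and 56, and the compared groups alone gave 9 for 65 Gy. Between the controls DESeq2 called 225 and the exact test 238, where the quasi-likelihood test called 127, or 32 from the compared groups only. After 75 Gy at 2 weeks the compared groups alone gave 834 genes against 1707. By adjusted p alone, 2422, 4922, 3234 and 7935 genes passed in the 4 comparisons of irradiated with control lung, against 960, 1707, 1164 and 2297 with the limit on size, and 359 passed between the controls. With 1 library left out the 4 counts with the limit on size ran from 677 to 1093, 1097 to 2053, 604 to 1275 and 1777 to 2548. The causes were not tested. No paired analysis was possible because the library numbers are unique and none occurs in more than 1 group. The 65 Gy group of 6 weeks had 2 libraries, so without either of them its lone library was assumed to vary like the others.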

Other observations

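Genes of mucus-producing airway cells varied strongly between libraries of the same group. They were picked after control library 3127 was seen to stand apart. In that library Clca1 was at 618 CPM, the mucin Muc5ac at 43.0, the mucus protein Fcgbp at 88.0 and Agr2, a chaperone for mucins, at 9.81 CPM. In the other 5 controls Clca1 was at 0 to 3.37 CPM, Muc5ac at 0.974 to 5.93, Fcgbp at 3.02 to 9.58 and Agr2 at 0.248 to 1.78. Among the 11 irradiated libraries Clca1 ran from 1.79 to 183 CPM with a median of 8.69. Its highest value there was in 3138 (65 Gy, 6 weeks), which also had the highest irradiated values of Muc5ac (24.7 CPM) and Fcgbp (36.7 CPM). The second 65 Gy library of 6 weeks, 3140, had 8.69 CPM of Clca1. Retnla was at 298 CPM in 3140 and 277 CPM in 3138.

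Retnla and Chil1, the most abundant members per length, did not rank alike within groups. In 4 of 6 groups the library with the most Retnla had the least Chil1 (3127, 3130, 3134 and 3140). The controls and the 75 Gy libraries of 6 weeks were the exceptions. This was seen after looking at the values and was not tested.

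Markers of macrophage subsets moved unevenly (65 and 75 Gy at 2 weeks, then 65 and 75 Gy at 6 weeks). Of 13 markers of resident alveolar macrophages, 3, 3, 6 and 5 rose and 4, 3, 0 and 2 fell. The protease gene Ctsk rose in all 4 comparisons (log2 fold changes of 2.55 to 2.94). The scavenger receptor Marco rose at 2 weeks (2.43 and 2.62) and after 65 Gy at 6 weeks (1.74), and was at 0.27 after 75 Gy at 6 weeks (adjusted p = 0.486). Ear1, a ribonuclease gene, fell at 2 weeks (-2.31 and -1.60, adjusted p = 0.00192 and 0.00833) and was at 0.20 and -0.26 at 6 weeks. Of 11 interstitial macrophage markers 3, 4, 5 and 5 rose. Lyve1, which is also a lymphatic vessel gene, was the only one of them to fall, after 65 Gy at 2 weeks (-1.02, adjusted p = 0.0419) and 75 Gy at 6 weeks (-1.30, adjusted p = 0.00427).

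Of 8 monocyte markers 1, 2, 3 and 3 rose and 0, 1, 0 and 0 fell, and of 7 eosinophil markers 1, 1, 0 and 1 rose, which was Ear6 each time (not called after 65 Gy at 2 weeks without control library 3127). Of 11 alveolar type 2 and airway secretory markers 0, 0, 1 and 1 rose and 0, 0, 0 and 1 fell. Of 9 adipocyte markers 0, 1, 1 and 2 rose and 0, 1, 0 and 0 fell, with median log2 fold changes of -0.49, -2.91, -0.01 and 0.99. The gene that rose was Lpl each time, joined after 75 Gy at 6 weeks by Fabp4, which was also listed with the resident alveolar macrophage markers. After 75 Gy at 2 weeks Lpl was not called without 3127 or without 3134. The gene that fell was Cidec. Of 6 mesothelial markers 3 fell after 65 Gy at 6 weeks (Upk3b, Wt1 and Lrrn4). Of 6 proliferation markers 6, 6, 3 and 5 rose, among them Cdkn1a, which encodes the cell cycle inhibitor p21 and was listed with them, in all 4 (2.21 to 2.41).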
